A study of Mus musculus with 21 samples.

Results

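The comparison set a mouse breast cancer line that overexpressed ZBTB18 and carried an inducible TGFBR2, kept without added ligand, against an empty vector line. Its members were the 3 receptor line libraries given vehicle and the 3 empty vector libraries, chosen by their sample titles, which makes 6 of the 21 libraries in the series. Per the labels, every library came from E0771 breast cancer cells or derivatives of them, and all carried GFP. The receptor line had ZBTB18 overexpression and a doxycycline-inducible TGFBR2, and was kept in doxycycline, labelled 1 mg/mL, plus vehicle instead of TGF-β1. The empty vector line is labelled with the empty vector alone, and its labels name no doxycycline of its own. The same cells with ZBTB18 overexpression and no receptor construct, called the ZBTB18 line below, and the untreated parental E0771 cells served as further references, each with 3 libraries. A few levels are also given from 3 receptor line libraries kept in doxycycline, labelled 1 mg/mL, with TGF-β1, labelled 2 ng/mL. All cells grew in RPMI medium with calf serum, and sequencing libraries were made from polyA RNA with a strand-specific kit. Each group is a single line, so the ZBTB18 construct, the receptor construct, doxycycline, vehicle and the history of the line cannot be told apart in this comparison. The labels do not say that replicates were separate cultures. The p-values then measure only the spread between replicate libraries, estimated over all 21 libraries of the series, and that spread may be technical.

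ZBTB18 is a zinc finger protein that binds DNA and is best known as a repressor of transcription. TGF-β ligands are secreted in a latent form, and once released they bind TGFBR2, which recruits and activates TGFBR1. The active pair phosphorylates SMAD2 and SMAD3, and these join SMAD4 and act on target genes in the nucleus. In breast cancer cells the pathway is known for its links to matrix production, motility and loss of epithelial character.

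The 6 libraries held 36052482 to 90518872 counts, and replicate 1 was the deepest in both groups. The log2 SD of a typical gene (the median over genes) was about equal, at 0.0906 in the empty vector line and 0.0925 in the receptor line. A chi-square per gene between replicate pairs, which also grows with depth, was less even. In the receptor line it was 24.8 and 28.8 for replicate 1 against replicates 2 and 3, and 12.2 between replicates 2 and 3. With empty vector it was 10.6 to 16.3. Mitochondrially encoded transcripts took 0.586 to 0.734% of counts in the receptor line and 0.861 to 1.07% with empty vector. In the parental line, replicate 1 had 14% of its counts on the single gene entry Gm42418, against 0.0918% and 0.0595% in replicates 2 and 3. Its library scaling factor (TMM) was 0.839, and the parental values below include this library. Of the 8 markers of blood and immune cells, 6 stayed under 0.1 CPM (counts scaled to the library total) in both groups. The 6 markers of E0771 cancer cells did not all stay level between empty vector and the receptor line. The keratin Krt8 was at 290 CPM and 296 CPM and Epcam at 3.18 CPM and 3.22 CPM. Erbb2 was lower in the receptor line (45.4 CPM and 16.3 CPM), as was Esr1 (0.748 CPM and 0.112 CPM). The epithelial markers Krt18 and Cdh1 were under 0.1 CPM in each.

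Zbtb18 (ENSMUSG00000063659.11, chromosome 1, 177442351 to 177450764, plus strand, build mm10) and Tgfbr2 (ENSMUSG00000032440.13, chromosome 9, 116084293 to 116175360, minus strand) were both higher in the receptor line than with empty vector. Zbtb18 measured 24.1, 25.6 and 25.7 CPM with empty vector and 75.4, 86.2 and 87 CPM in the receptor line, with no overlap. That was a 3.3-fold rise (log2 fold change 1.72, SE 0.11, edgeR quasi-likelihood adjusted p = 3.03e-11). The ZBTB18 line lay higher still, at 106 to 124 CPM, and the receptor line was below it by a log2 difference of -0.45 (edgeR adjusted p = 0.00162).

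Tgfbr2 measured 27, 26.6 and 26.1 CPM with empty vector and 572, 566 and 626 CPM in the receptor line, a 22.1-fold rise (log2 fold change 4.47, SE 0.09, edgeR adjusted p = 5.43e-19). In the ZBTB18 line it stood at 1.47, 1.97 and 1.77 CPM, so the receptor line held 339-fold more than that line (log2 8.4, edgeR adjusted p = 9.39e-23). Both markers thus moved the way the labels name. The deposited counts do not separate transcripts of a construct from those of the cell's own gene. Tgfbr1, the partner receptor, went the other way and fell from 31.7, 26.7 and 29 CPM to 22.5, 19.3 and 19.9 CPM (log2 -0.5, SE 0.1, edgeR adjusted p = 0.000219). Its parental level of 18.7 CPM was close to that of the receptor line.

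**Figure D1:**
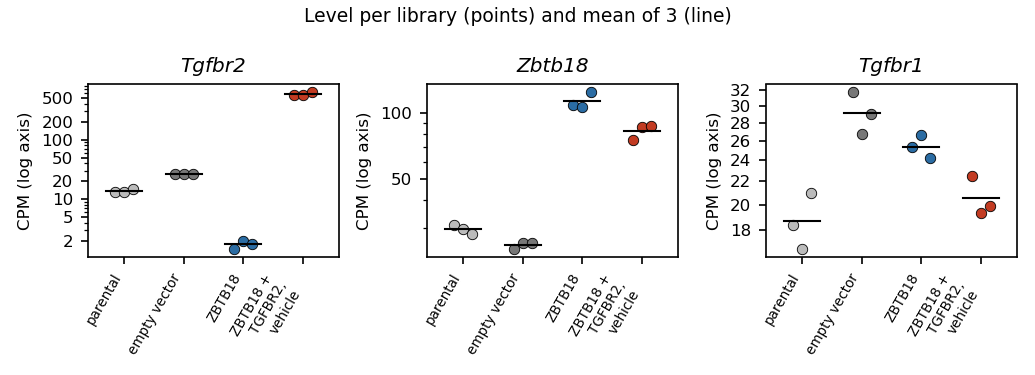
Level of Tgfbr2, Zbtb18 and Tgfbr1 in CPM on log axes, in the parental, empty vector, ZBTB18 and receptor (ZBTB18 + TGFBR2, vehicle) lines; points are libraries and lines are means of 3. Tgfbr2 sits between 566 and 626 CPM in the receptor line and between 1.47 and 1.97 CPM in the ZBTB18 line, while Tgfbr1 is lowest in the parental and receptor lines.

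Of 15432 genes tested, 3958 were higher (25.6%) and 3990 lower (25.9%) in the receptor line than with empty vector, which is 51.5% of all genes. Changes of at least 2-fold numbered 2542 (16.5%), with 1321 higher (8.56%) and 1221 lower (7.91%). The ZBTB18 line differed from the same empty vector libraries in 28.4% of genes, 2153 higher (14.0%) and 2235 lower (14.5%). The median absolute log2 fold change over all genes was 0.379 for the receptor line and 0.242 for the ZBTB18 line. Set directly against each other, the receptor line and the ZBTB18 line differed in 38.8% of genes, 3006 higher (19.5%) and 2980 lower (19.3%) in the receptor line.

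The next question was which changes of the ZBTB18 line were kept when the receptor was present. Of the 2235 genes lower in the ZBTB18 line, 1585 were also lower in the receptor line, which is 70.9% of the first list and 39.7% of the 3990 genes in the second. Another 105 were higher in the receptor line, and 545 did not pass the threshold there. Of the 2153 genes higher in the ZBTB18 line, 1392 were also higher in the receptor line, or 64.7% of the first list and 35.2% of the second, with 157 opposite and 604 not passing. Among changes of at least 2-fold, 487 of 737 lower genes (4.78% of all genes tested) and 305 of 507 higher genes (3.29%) moved the same way at that size, while 30 and 44 were opposite. Both comparisons use the same 3 empty vector libraries, so a shared change can come from that reference, and these shares are not independent support for an effect of ZBTB18.

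Among the genes kept at nearly the same size, Parp8, a member of the poly-ADP-ribose polymerase family, fell furthest together with the cytoskeletal gene Nhsl2. Parp8 went from 25.5, 26.1 and 29.4 CPM with empty vector to 0.554, 0.708 and 0.761 CPM in the receptor line, beside 0.773, 0.913 and 0.857 CPM in the ZBTB18 line. The log2 fold changes were -5.35 (SE 0.16, edgeR adjusted p = 1.39e-16) and -4.99, and the parental line held 16.4 CPM. Nhsl2 changed by -6.45 and -6.29. Crybg1 was nearly level within the receptor line, at 3.79, 3.75 and 3.8 CPM, where empty vector gave 35, 34.3 and 31.8 CPM (log2 -3.15). Aldh5a1, which encodes the mitochondrial enzyme that oxidises succinic semialdehyde, fell from 18.1 to 19.3 CPM down to 1.66 to 2.63 CPM (log2 -3.17). The calcium pump gene Atp2b4 fell by 3.43 on the log2 scale, and the dystrobrevin gene Dtna by 4.87. These genes were picked for a log2 difference under 0.5 between the receptor line and the ZBTB18 line. That none of them passed the threshold in that comparison follows largely from this choice and is not a result.

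On the higher side, Dppa2, a gene of pluripotent cells, changed most. It stood at 0.188, 0.082 and 0.159 CPM with empty vector, at 13.5, 14.6 and 13.4 CPM in the receptor line and at 11.1 to 12.6 CPM in the ZBTB18 line. The log2 fold change was 6.47 (SE 0.19, edgeR adjusted p = 1.39e-16) in the receptor line and 6.24 in the ZBTB18 line, and the parental line held 5.37 CPM. Loxl2, a lysyl oxidase that crosslinks collagen, stood at 6.11, 6.59 and 4.41 CPM with empty vector and reached 112, 126 and 137 CPM in the receptor line (log2 4.45, SE 0.22). Its parental level was 50.6 CPM, between empty vector and the overexpressing lines. Ccn5, a matricellular gene, rose from 0.37 to 0.957 CPM up to 8.37 to 10.1 CPM (log2 3.8), with 3.77 in the ZBTB18 line and a parental mean of 0.604 CPM. Espn, an actin-bundling gene (log2 2.3), and Cd244a, which encodes an immune receptor (log2 3.11), rose in both overexpressing lines too.

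The 15 largest falls against empty vector included genes with no count at all in the receptor line. Gspt2, a translation termination factor gene, had 0 counts in all 3 receptor libraries and 1828 counts with empty vector (11.5, 13.3 and 11.1 CPM). Taken against a floor of 3 counts over the group, that was at least 740-fold lower, a bound that covers counting error only. The annexin gene Anxa6 (10.2, 10.4 and 10.3 CPM with empty vector) was at least 642-fold lower. Kcnip1, a potassium channel-interacting gene, was at least 644-fold lower, and the cathepsin gene Ctsh at least 509-fold lower. All 4 had counts in the ZBTB18 line, where Gspt2 stood at 1.33 to 1.99 CPM and Anxa6 at 0.464 to 0.547 CPM. Each was also lower in the ZBTB18 line than with empty vector, by log2 -2.87 for Gspt2, -4.31 for Anxa6, -6.85 for Kcnip1 and -3.72 for Ctsh. Parental Kcnip1 was 0.0076 CPM, so for this gene the empty vector line was the one that stood apart.

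Mmp2, a gelatinase that cleaves basement membrane collagen, fell from 8.44, 7.74 and 6.16 CPM to 0.0554, 0 and 0.0231 CPM (log2 -7.77, SE 0.4, edgeR adjusted p = 1.87e-12). It was lower in the receptor line than in the ZBTB18 line (0.219 to 0.332 CPM, log2 difference -3.03), and the parental line held 19.1 CPM. The histone methyltransferase gene Nsd1 fell to at most 0.0461 CPM from 10.5 to 11.4 CPM (log2 -8.55). The monocarboxylate transporter gene Slc16a14 fell from 22.3, 14.9 and 22.8 CPM to at most 0.0922 CPM (log2 -8.23), but its parental level was also low, at 0.246 CPM. Of the genes with sequences below, Col3a1 was higher in the ZBTB18 line than with empty vector (means of 279 CPM and 172 CPM). Parental Kcnip1 was as low as 0.0076 CPM. The promoters of some genes strongly lower in the receptor line hold the core of the known ZBTB18 consensus, ACATCTG, or the E-box CACCTG. They are shown in capitals, read on either strand, with the surrounding bases from the RefSeq promoter table (GRCm38.p6):
Kcnip1, chr11:33680799-33680855, minus strand, 1 of 3 promoters in the table: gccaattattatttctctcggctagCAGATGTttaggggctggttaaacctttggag
Col3a1, chr1:45311431-45311487, plus strand: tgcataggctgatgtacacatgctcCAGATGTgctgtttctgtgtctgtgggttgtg
Crybg1, chr10:44004964-44005019, minus strand, 1 of 3 promoters: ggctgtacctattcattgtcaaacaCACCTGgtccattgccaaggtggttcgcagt
Aldh5a1, chr13:24937832-24937887, minus strand: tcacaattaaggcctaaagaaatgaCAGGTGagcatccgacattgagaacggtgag

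ACATCTG on either strand was in the window from 250 bases before to 50 bases after the start for 3.06% of the 10276 tested genes with a promoter in the table. The share was 5.72% (47 of 822) for genes at least 2-fold lower in the receptor line and 4.01% (32 of 799) for genes at least 2-fold higher. CACCTG was in 20.2% of all these promoters, 25.5% of those of lower genes and 27.2% of those of higher genes. GTCTAGAC, a palindromic SMAD element, was in 0.282%, 0.243% and 0.626%. A match gives the letters in this window only and was not tested as a binding site.

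The largest rises were led by Dppa2 and by genes that were low in the ZBTB18 line. Car9, a cell surface carbonic anhydrase, rose from 0.351, 0.765 and 0.581 CPM to 27.7, 34.1 and 30.3 CPM (log2 5.85, SE 0.25, edgeR adjusted p = 5.8e-14), against 0.715 to 1.22 CPM in the ZBTB18 line. The scavenger receptor gene Scarf1 rose from 0.69, 0.793 and 0.846 CPM to 19.9, 22.1 and 24 CPM (log2 4.84, SE 0.18), and its 0.657 to 0.975 CPM in the ZBTB18 line overlapped the range with empty vector. Col13a1, a transmembrane collagen (log2 5.99), Ptgds, a prostaglandin synthase (5.12), and the acetylcholine receptor subunit gene Chrnd (4.83) were also among the 15. Il23a, an interleukin subunit, rose in every library but unevenly, from 0.59, 0.547 and 1.14 CPM to 6.75, 14.6 and 21.4 CPM (log2 4.26, SE 0.48, edgeR adjusted p = 1.06e-06).

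Within the TGF-β pathway, the ligand genes Tgfb1, Tgfb2 and Tgfb3 did not pass the threshold, while 4 latency genes did. Tgfb1 measured 92.3, 95.1 and 104 CPM with empty vector and 90.3, 102 and 109 CPM in the receptor line (log2 0.05, SE 0.11, edgeR adjusted p = 0.74), and Tgfb3 changed by -0.16 (edgeR adjusted p = 0.264). Tgfb2 was low, at 0.891, 0.656 and 0.687 CPM and 0.565, 0.447 and 0.876 CPM (log2 -0.29, SE 0.33, edgeR adjusted p = 0.495). Of the 11 tested genes for ligands, latency proteins and activators, 2 were higher and 2 lower, with a median log2 of -0.16 against -0.000659 over all genes. For this and each later list against empty vector, the share over all genes was 25.6% higher and 25.9% lower. Lrrc32, which holds latent TGF-β on the cell surface, rose from 1.44, 1.75 and 1.06 CPM to 11.8, 12.1 and 12.1 CPM (log2 3.08, SE 0.23, edgeR adjusted p = 5.96e-10). Nrros, a related anchor, rose from at most 0.164 CPM to 1.68 to 1.88 CPM (log2 3.89). Ltbp1, which stores latent TGF-β in the matrix, fell from 106, 69.7 and 117 CPM to 15.3, 13.5 and 12 CPM (log2 -2.84, SE 0.19, edgeR adjusted p = 4.22e-10). The ZBTB18 line kept 71.6 to 101 CPM of Ltbp1. Ltbp4 fell by 0.5 on the log2 scale (edgeR adjusted p = 0.0136), a call lost without receptor line replicate 3 (-0.44, edgeR adjusted p = 0.0579).

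Among the receptors, 2 of 11 tested genes rose, Tgfbr2 and the activin receptor gene Acvr2a (log2 0.35), and 5 fell. The co-receptor gene Tgfbr3, whose product presents ligand to TGFBR2, fell from 99.3, 84.2 and 85.2 CPM to 32.8, 33.2 and 42.5 CPM (log2 -1.31, SE 0.14, edgeR adjusted p = 2.28e-07). The BMP type I receptor gene Acvr1 fell from 22.9, 19.1 and 23.7 CPM to 8.84, 7.25 and 7.38 CPM (log2 -1.48, SE 0.14, edgeR adjusted p = 1.87e-08). Acvrl1 fell by 1.68 and Acvr1b by 0.54 on the log2 scale. Tgfbr1 and Acvr1b stood no lower than in the parental line, with log2 differences of 0.14 and 0.17 when the parental libraries replaced empty vector.

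Of 17 SMAD genes and regulators, 4 rose and 8 fell (median log2 -0.22). Smad1, which carries BMP signals, fell from 29.2, 31.1 and 29.8 CPM to 13.5, 15.3 and 17.1 CPM (log2 -0.97, SE 0.12, edgeR adjusted p = 7.8e-07). Smad2 (-0.33), Smad5 (-0.36) and Smad4 (-0.22) fell less, and the Smad4 call was lost without empty vector replicate 2 (-0.17, edgeR adjusted p = 0.0903) or receptor line replicate 2 (-0.2, edgeR adjusted p = 0.059). Smad3 measured 64.6 to 69.4 CPM and 66.8 to 77.4 CPM (edgeR adjusted p = 0.435). The feedback inhibitor gene Smad7 fell from 27.3, 22.2 and 28.6 CPM to 16.8, 17.9 and 16.4 CPM (log2 -0.61, edgeR adjusted p = 0.00193), near the parental mean of 17.7 CPM. Skil, a SMAD co-repressor gene that TGF-β induces, fell from 76.7, 64.9 and 81.5 CPM to 21.3, 22.8 and 30.6 CPM (log2 -1.58, SE 0.13, edgeR adjusted p = 1.86e-09). In the ZBTB18 line Skil stood at 28.6 to 34.1 CPM and in the parental line at 27.9 CPM.

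Genes that TGF-β induces were mostly lower in the receptor line than with empty vector, although Tgfbr2 was 22.1-fold higher. Of 33 tested response genes, 19 fell and 4 rose, with a median log2 of -0.89. The ZBTB18 line gave 22 lower and 3 higher against the same empty vector libraries (median -0.83). Between the receptor line and the ZBTB18 line, 10 of these genes were higher and 9 lower in the receptor line (of all genes 19.5% and 19.3%). Against the parental line, where the receptor line differed in 62.9% of all genes (30.6% higher and 32.3% lower), 7 were higher and 13 lower.

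Vcan, the large matrix proteoglycan versican, changed most of these genes. It fell from 193, 134 and 193 CPM to 2.33, 1.25 and 1.73 CPM (log2 -6.57, SE 0.23, edgeR adjusted p = 2.21e-14), below the 31.8 to 34.3 CPM of the ZBTB18 line and the 39.6 CPM of the parental line. Tnc, the matrix glycoprotein tenascin C, fell by 2.74, Snai1, a repressor of epithelial genes, by 1.06 and Tgfbi by 0.93 on the log2 scale. Tgfbi was level with the parental line (log2 0.01).

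Some response genes were low in the ZBTB18 line and higher than that in the receptor line, without passing the threshold against empty vector. Ccn4, a matricellular gene, measured 21.1, 21.5 and 17.9 CPM with empty vector, 3.01, 2.7 and 2.57 CPM in the ZBTB18 line and 12.6, 16.6 and 19.5 CPM in the receptor line. The receptor line did not differ from empty vector past the threshold (log2 -0.32, SE 0.17, edgeR adjusted p = 0.133) but stood above the ZBTB18 line by 2.55 (edgeR adjusted p = 1.72e-09). Ccn2 followed the same order with no overlap between the groups, at 5.02 to 6.16 CPM, 0.747 to 1 CPM and 2.29 to 4.64 CPM (log2 -0.54 against empty vector, edgeR adjusted p = 0.238, and 2.08 against the ZBTB18 line, edgeR adjusted p = 0.000725). Junb, an AP-1 subunit gene, lay at 62.8 to 87.5 CPM with empty vector, 41.2 to 48.9 CPM in the ZBTB18 line and 55.9 to 91.1 CPM in the receptor line. The transglutaminase gene Tgm2 varied in the receptor line, at 20.9, 45.8 and 96.2 CPM, where empty vector gave 94.3 to 106 CPM (edgeR adjusted p = 0.122) and 7.98 to 19.8 CPM in the ZBTB18 line (edgeR adjusted p = 0.00347). The falls of Ccn4 and Tgm2 against empty vector passed without receptor line replicate 3 (log2 -0.47, edgeR adjusted p = 0.0466, and -1.59, edgeR adjusted p = 0.00914).

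A few response genes rose above empty vector in the receptor line. Bhlhe40, a transcriptional repressor gene, went from 88.7, 93.7 and 74.2 CPM to 218, 206 and 208 CPM (log2 1.3, SE 0.08, edgeR adjusted p = 4.83e-11), while it fell to 59.9 to 68.4 CPM in the ZBTB18 line. Cdkn1a, the gene of the cell cycle inhibitor p21, rose from 110, 104 and 124 CPM to 182, 161 and 209 CPM (log2 0.71, edgeR adjusted p = 0.00248), with 54.8 to 83.2 CPM in the ZBTB18 line. Col1a1, a fibrillar collagen gene, rose from 1.29 to 1.89 CPM up to 11, 11.1 and 7.91 CPM (log2 2.75, SE 0.33). The integrin gene Itgb5 rose by 0.33. The receptor line libraries given TGF-β1 held 300 CPM of Bhlhe40 and 38.8 CPM of Col1a1, and their difference from vehicle was not tested here.

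**Figure D2:**
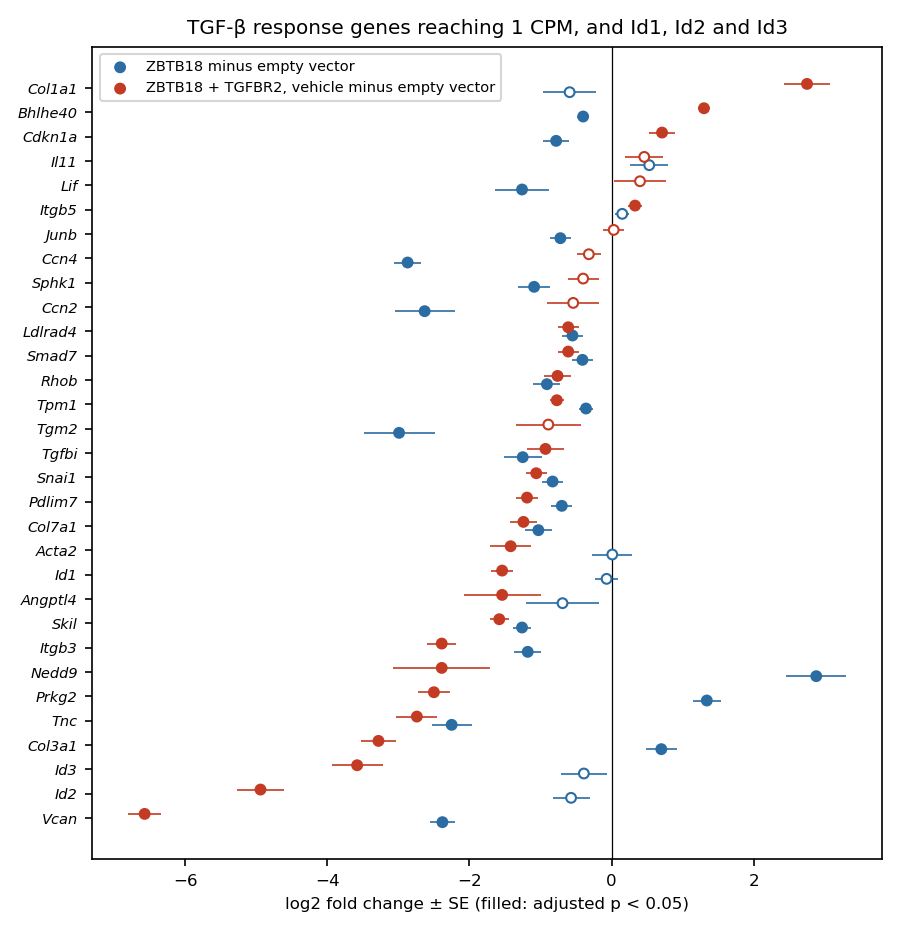
Log2 fold change against empty vector, with SE, of TGF-β response genes that reach 1 CPM in a group and of Id1, Id2 and Id3, in the ZBTB18 line and the receptor line with vehicle; filled points pass an adjusted p of 0.05. Vcan lies at -6.57 and Id2 at -4.94 in the receptor line, and Ccn4, Ccn2 and Tgm2 lie near -3 in the ZBTB18 line with open points in the receptor line.

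The ID genes, whose products block basic helix-loop-helix factors and which BMP signals induce, fell in the receptor line and did not pass the threshold in the ZBTB18 line. Id2 went from 23.1, 22.2 and 23.7 CPM to 1.06, 0.391 and 0.692 CPM, a 30.6-fold fall (log2 -4.94, SE 0.33, edgeR adjusted p = 3.82e-10). Id3 fell from 73.5, 78.3 and 103 CPM to 4.55, 7.49 and 9.66 CPM (log2 -3.58, SE 0.36), and Id1 from 88.9, 79.2 and 113 CPM to 33, 34 and 29.8 CPM (log2 -1.54, SE 0.16). No receptor line library overlapped an empty vector or ZBTB18 line library for any of these 3 genes.

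The direct difference from the ZBTB18 line was -4.36 for Id2 (edgeR adjusted p = 3.79e-09), -3.19 for Id3 (edgeR adjusted p = 3.29e-06) and -1.47 for Id1 (edgeR adjusted p = 5.86e-07). Of the 9 tested genes of the ID and BMP target list, 4 rose and 4 fell. The higher ones were the homeobox genes Dlx3 (log2 1.2) and Dlx2 (0.55, named after its values were seen), Gata2 (0.78) and the BMP feedback gene Smad6, which rose from at most 0.138 CPM to 0.317 to 0.415 CPM (1.77). The fourth lower gene was Atoh8 (-3.52).

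**Figure D3:**
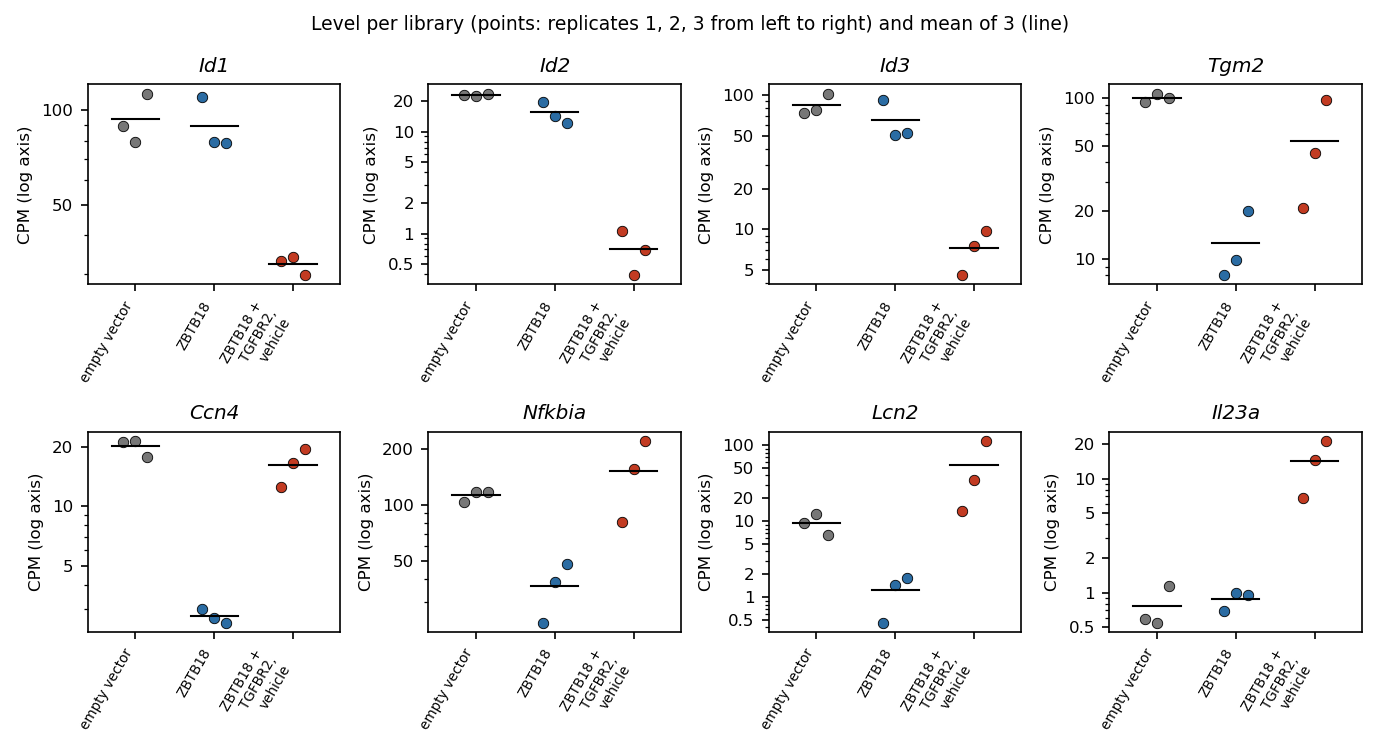
Level per library in CPM on log axes for 8 genes in the empty vector, ZBTB18 and receptor lines, with replicates 1, 2 and 3 from left to right and the mean as a line. Id1, Id2 and Id3 are lower in all 3 receptor libraries, Ccn4 is low in the ZBTB18 line alone of the lines shown, and Nfkbia, Lcn2 and Il23a differ up to several-fold between receptor libraries, with replicate 1 lowest.

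Collagens and integrins held more lower than higher genes, and the other matrix genes split. Of 18 tested collagen genes, 11 fell and 2 rose, with a median log2 of -0.91. The ZBTB18 line had 10 of the 18 lower and 4 higher than with empty vector (median -0.69), where 14.5% and 14.0% of all genes were. Col3a1, a fibrillar collagen of loose tissue, fell from 190, 143 and 182 CPM to 19.7, 18 and 15 CPM (log2 -3.28, SE 0.24, edgeR adjusted p = 3.05e-09), while the ZBTB18 line was higher than empty vector at 233 to 310 CPM (log2 0.7, edgeR adjusted p = 0.0204). The parental line held 37.2 CPM of Col3a1. Col5a3 fell from 183 to 194 CPM down to 28.7, 34.2 and 51.6 CPM (log2 -2.3), and the basement membrane genes Col4a1 and Col4a2 fell by 0.97 and 0.85 on the log2 scale. Col18a1 did not pass, at 637 CPM and 632 CPM. Against the parental line the collagens split 5 higher and 5 lower. The 2 higher collagens were Col1a1 and Col6a1 (log2 0.42, named after its values were seen), and that count dropped to 1 without any single library other than empty vector replicate 2. The Col6a1 call itself was lost without each of the 6 libraries in turn (edgeR adjusted p = 0.0509 to 0.153).

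Of 28 matrix glycoprotein and proteoglycan genes, 9 rose and 11 fell (median log2 -0.25), where 25.6% of all genes rose and 25.9% fell. The ZBTB18 line had 7 of the 28 higher and 14 lower (median -0.27), where 14.0% and 14.5% of all genes were. The laminin gene Lamb1 fell from 42.3, 24.1 and 39.6 CPM to 1.64, 1.53 and 1.8 CPM (log2 -4.42, SE 0.23), with 35.1 to 39.8 CPM in the ZBTB18 line, and nidogen, Nid1, fell by 1.86. Of 26 matrix proteases and inhibitors, 14 fell and 3 rose (5 in the 6 libraries of the comparison fitted alone, with or without the replicate number as a block, and 1 without receptor line replicate 2). Ctsl, a cathepsin, fell from 929, 792 and 948 CPM to 301, 339 and 385 CPM (log2 -1.38, SE 0.12), and the serine protease gene Htra1 by 1.24. The membrane metalloprotease gene Mmp14 fell by 0.92 against empty vector and stood 0.23 above the parental line. The ZBTB18 line had 13 of the 26 proteases and inhibitors lower and 4 higher than with empty vector.

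Of 14 integrin genes, 8 fell and 3 rose (median log2 -0.44). The ZBTB18 line had 7 of the 14 lower and 2 higher than with empty vector (median -0.38), where 14.5% and 14.0% of all genes were. The collagen-binding Itga1 fell from 50.9, 38 and 48.4 CPM to 11.2, 8.29 and 9.71 CPM (log2 -2.23, SE 0.17, edgeR adjusted p = 5.24e-10), Itgb3 by 2.39 and Itgb4, of hemidesmosomes, by 2.6. Itga6 did not pass, at 642 CPM and 542 CPM, but did without empty vector replicate 2 (log2 -0.35, edgeR adjusted p = 0.0397) and in the block fit on 6 libraries (-0.23, edgeR adjusted p = 0.011, and 0.0674 in those libraries with no block). Of 36 contractile and actin cytoskeleton genes, 22 fell and 3 rose (5 in the block fit on 6 libraries, 4 in those libraries with no block), with Tpm1 down by 0.77, Tpm2 by 0.87 and Myl6 by 0.93 on the log2 scale. Acta2, smooth muscle actin, fell from 128, 126 and 161 CPM to 49.8, 50.9 and 54.8 CPM (log2 -1.42, SE 0.29, edgeR adjusted p = 0.000605), while the ZBTB18 line ranged from 102 to 174 CPM. The ZBTB18 line had 13 of the 36 contractile genes lower and 1 higher than with empty vector. Set against the parental line this list turned, with 16 genes higher and 3 lower in the receptor line. In the receptor line Acta2 lay 0.49 above the parental level.

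Of 21 tested genes of the epithelial-mesenchymal transition list, 11 fell and 4 rose. The ZBTB18 line had 6 of the 21 lower and 6 higher than with empty vector. Prrx1, a mesenchymal homeobox gene, fell from 85.3, 58 and 86 CPM to 3.5, 3.24 and 2.88 CPM (log2 -4.56, SE 0.15, edgeR adjusted p = 1.31e-15), with 98.8 to 114 CPM in the ZBTB18 line and 14.8 CPM in the parental line. Twist1 fell by 0.97 and Fstl1, a secreted glycoprotein gene, by 1.32 on the log2 scale. S100a4, a calcium-binding protein linked to motility, rose from 61.8, 66.4 and 39.9 CPM to 377, 349 and 383 CPM (log2 2.72, SE 0.23), beside 151 to 193 CPM in the ZBTB18 line. Vim, vimentin, at 3670 CPM and 4250 CPM, did not pass (edgeR adjusted p = 0.19), although it did in the 6 libraries alone (log2 0.22, edgeR adjusted p = 0.0208) and there with the replicate block (0.21, edgeR adjusted p = 0.0202).

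The summed level of the 7 fibroblast markers was 154 to 163 CPM in the receptor line, 293 to 342 CPM with empty vector and 377 to 467 CPM in the ZBTB18 line. Col3a1 made most of that gap (mean 172 CPM with empty vector and 17.6 CPM in the receptor line), and the markers did not move together. Pdgfrb was lower (40.7 and 21.4 CPM), Pdgfra was at 107 CPM and 110 CPM, and Col1a1 was higher (1.51 and 10.0 CPM). The defining fibroblast genes Dcn, Lum and Col1a2 had means of at most 0.0759 CPM in these groups. In bulk RNA, fewer cells of a type and less RNA per cell cannot be told apart.

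The most uniform change was in sterol synthesis, the pathway that makes cholesterol from acetyl-CoA and that SREBP2 controls. All 25 listed genes rose, 23 of them at least 2-fold, with a median log2 of 2.25. Fdft1, squalene synthase, rose from 17.6, 19.2 and 14.5 CPM to 172, 129 and 141 CPM, 8.62-fold (log2 3.11, SE 0.25, edgeR adjusted p = 1.39e-08). Hmgcs1, an early enzyme of the pathway, rose from 79.5, 85 and 61.8 CPM to 503, 320 and 402 CPM (log2 2.44, SE 0.22, edgeR adjusted p = 4.84e-08), and Sqle, squalene epoxidase, from 59.9 to 75.7 CPM up to 474, 332 and 383 CPM (2.49).

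Lss, Acat2 and Mvd changed by 2.85, 3.09 and 3.16, and Tm7sf2, a sterol reductase gene, by 4.43. Within the receptor line replicate 1 was the highest and replicate 2 the lowest for Hmgcs1, Lss, Acat2 and Mvd, and all 3 libraries lay far above the other lines. In the ZBTB18 line 6 of the 25 genes were higher and 1 lower than with empty vector (median 0.26), where 14.0% and 14.5% of all genes were. Against the ZBTB18 line itself all 25 were higher in the receptor line (median 2.29), and against the parental line all 25 again (median 1.6). The empty vector line stood lower than the parental line in 15 of them. Of the 17 sterol genes with a promoter in the table, 1 held TCACNCCAC, a sterol element, against 1.38% of all; this motif and ACGTG below were added after the values were seen. It is shown in capitals:
Hmgcs1, chr13:119690189-119690247, plus strand: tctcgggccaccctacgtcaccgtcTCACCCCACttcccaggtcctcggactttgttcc

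**Figure D4:**
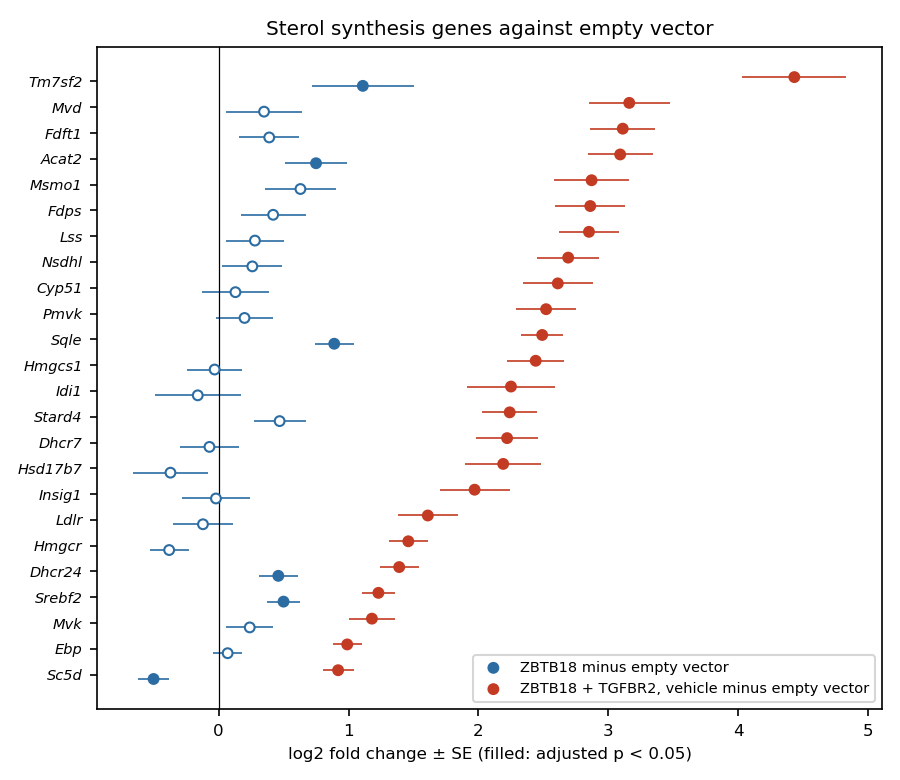
Log2 fold change against empty vector, with SE, of 24 of the 25 sterol synthesis genes in the ZBTB18 line and the receptor line with vehicle; filled points pass an adjusted p of 0.05. Every gene shown is filled and above 0.9 in the receptor line, while 18 are open in the ZBTB18 line.

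Fatty acid synthesis genes rose with them, 17 of 19 tested (median log2 0.83). Acly, which makes cytosolic acetyl-CoA, rose from 137, 136 and 131 CPM to 366, 288 and 348 CPM (log2 1.31, SE 0.1, edgeR adjusted p = 1.63e-09). The desaturase gene Fads2 rose by 1.78, the elongase gene Elovl6 by 1.05 and the acyl-CoA ligase gene Acsl3 by 1.59. Acsl1 rose in both overexpressing lines, by 0.83 in the receptor line and 0.92 in the ZBTB18 line (direct difference -0.09, edgeR adjusted p = 0.445). Fasn, at 415 CPM and 426 CPM, and Acaca, at 150 CPM and 147 CPM, which carry out the central steps, did not pass. Of the 19, 15 were above the ZBTB18 line.

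Hypoxia and glycolysis genes formed another raised group, with 20 of 38 tested genes higher and 5 lower (median log2 0.52). Pfkp, a phosphofructokinase gene, rose from 168, 170 and 160 CPM to 583, 549 and 503 CPM (log2 1.71, SE 0.08, edgeR adjusted p = 1.84e-13), with 286 to 296 CPM in the ZBTB18 line. Bnip3, a mitophagy gene, rose from 38.7, 46 and 30.3 CPM to 220, 181 and 197 CPM (log2 2.38, SE 0.18), and its relative Bnip3l by 1.28. Slc2a1, the glucose transporter GLUT1, rose from 201, 200 and 190 CPM to 365, 351 and 404 CPM (log2 0.92, SE 0.09) and measured 182 to 204 CPM in the ZBTB18 line (edgeR adjusted p = 0.678 against empty vector).

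Car9, described above, rose 57.6-fold, and Aldoc, an aldolase, rose from under 0.08 CPM to 2.33 to 3.88 CPM (log2 5.57). Ldha, at 1930 CPM and 2540 CPM, did not pass (log2 0.4, edgeR adjusted p = 0.0636), but did in the 6 libraries alone (0.4, edgeR adjusted p = 1.47e-05) and there with the replicate block (0.4, edgeR adjusted p = 3.6e-06). Against the ZBTB18 line 24 of the 38 were higher and 1 lower. The count of lower genes fell from 5 to 2 without empty vector replicate 1 and to 3 without empty vector replicate 3 or any 1 receptor library. ACGTG, the core of the hypoxia response element, was in the promoters of 10 of the 16 higher genes that have one in the table, and in 22 of 33 over the whole list, against 29.2% of all tested genes. It is in capitals below, on either strand, and in Bnip3 the capitals hold it on both:
Bnip3, chr7:138909584-138909638, minus strand: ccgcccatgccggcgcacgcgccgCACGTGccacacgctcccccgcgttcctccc
Slc2a1, chr4:119108684-119108738, plus strand: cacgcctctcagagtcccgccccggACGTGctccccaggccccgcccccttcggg
Car9, chr4:43506983-43507025, plus strand: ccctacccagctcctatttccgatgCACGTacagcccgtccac

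Of 12 tested mitochondrially encoded genes, 5 were lower and 7 did not pass, where 25.9% of all genes were lower (median log2 of the list -0.5, against 0.12 in the ZBTB18 line). In the 6 libraries alone 8 were lower, with or without the replicate block, and without receptor line replicate 2 the count of lower genes was 3. mt-Nd1, a complex I subunit gene, fell from 882, 923 and 816 CPM to 428, 315 and 372 CPM (log2 -1.23, SE 0.19, edgeR adjusted p = 2.08e-05), and mt-Cytb, of complex III, fell by the same 1.23. mt-Co1 did not pass, at 4040 CPM and 3240 CPM. Of 46 nuclear genes for the mitochondrial ribosome and its translation, 22 fell and 4 rose (8 in the block fit on 6 libraries, 5 in those libraries with no block, and 2 without empty vector replicate 1 or receptor line replicate 2), all by less than 2-fold. Mrpl13 fell from 84 to 86.4 CPM down to 42.8 to 50 CPM (log2 -0.89). Any share of RNA quality in these values was not tested.

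Stress and proliferation genes shifted less. Of 44 genes of the ATF4 and integrated stress response, 22 rose and 4 fell (median log2 0.28). The largest of those named was a fall, in the arginine transporter gene Slc7a3, from 12.1, 13.7 and 9.56 CPM to 0.632, 0.596 and 0.784 CPM (log2 -4.14, SE 0.23). Slc6a9, a glycine transporter gene, rose by 1.01, while Atf4 itself (662 CPM and 615 CPM) and Asns (539 CPM and 543 CPM) did not pass. Of 50 cell cycle genes, 21 fell and 5 rose (8 in the 6 libraries alone, with or without the block, 2 without empty vector replicate 2 and 3 without receptor line replicate 1), all by less than 2-fold. The nucleotide synthesis genes Rrm2 and Tyms fell by 0.98 and 0.99 and Ccnb1, cyclin B1, by 0.67 on the log2 scale. Top2a did not pass (907 CPM and 947 CPM). Against the parental line this list gave 22 higher and 15 lower.

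Interferon-stimulated genes split. Of 49 tested, 18 rose and 7 fell against empty vector, where 25.6% of all genes rose and 25.9% fell. The ZBTB18 line had 10 of the 49 lower, where 14.5% of all genes were lower. Set directly against the ZBTB18 line, the receptor line had 30 of the 49 higher and 3 lower (median log2 1.4). Over all genes 19.5% were higher and 19.3% lower in that comparison. The count of 30 was 22 to 27 with a library left out. Ifit2, an antiviral gene, fell from 20.1, 22.2 and 19.3 CPM to 1.45, 1.25 and 1.11 CPM (log2 -3.99, SE 0.27, edgeR adjusted p = 3.19e-10). Samd9l rose from 24.6, 28.3 and 27.6 CPM to 63.3, 57.6 and 52.9 CPM (log2 1.11), and Stat2, a transcription factor gene of the interferon response, from 9.33, 12.5 and 10.7 CPM to 28.9, 26.2 and 24.8 CPM (log2 1.3). The empty vector line was itself below the parental line in 45 of the 49 genes (median log2 -2.94; of all genes 58.0% differed between these lines, 28.9% higher and 29.0% lower), and against the parental line the receptor line had 38 lower. The count of 18 was 9 without empty vector replicate 1 and 10 without receptor line replicate 2, and the 7 lower genes became 4 without empty vector replicate 3 or receptor line replicate 1 or 3. Levels in the Ifi and Oas families depend on how reads were shared between relatives.

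Several NF-κB target genes varied between the receptor libraries. Of 31 tested, 10 rose and 2 fell (4 in the block fit on 6 libraries, 3 in those libraries with no block). Over all genes 25.6% rose and 25.9% fell. The count of higher genes was 5 or 6 without receptor line replicate 2 or 3 or any 1 empty vector library, and 5 were lower without receptor line replicate 3. Rela, a subunit of NF-κB, measured 94.9, 97.5 and 104 CPM with empty vector and 113, 140 and 152 CPM in the receptor line (log2 0.45, edgeR adjusted p = 0.0014). Nfkbia, the inhibitor that NF-κB induces, measured 103, 118 and 117 CPM with empty vector, 81, 155 and 221 CPM in the receptor line (edgeR adjusted p = 0.478) and 23.3, 38.4 and 47.8 CPM in the ZBTB18 line.

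Set against the ZBTB18 line, 21 of the NF-κB genes were higher in the receptor line, and 13 were higher without receptor line replicate 3. Over all genes 19.5% were higher in the receptor line in that comparison. The acute phase gene Saa3 rose to 1.81, 3.21 and 6.48 CPM from 0.291 to 0.957 CPM (log2 2.59, SE 0.68; 2.36 in the block fit on 6 libraries, edgeR adjusted p = 0.0507, and 0.0104 in those libraries with no block), while Birc3, an inhibitor of apoptosis, fell by 2.27. Receptor line replicate 1 was the lowest and replicate 3 the highest for Nfkbia, Rela and Saa3. The macrophage marker Cd68 followed the same order, at 5.58, 13.3 and 15.8 CPM in the receptor line and 6 to 6.45 CPM with empty vector. The myeloid marker Lyz2 differed in the other direction, with means of 0.473 CPM in the receptor line and 1.97 CPM with empty vector. Ptprc, Cd3e and Tyrobp, which define blood cells, were at or under 0.109 CPM in each of these libraries. A part of immune cells in these values was not otherwise tested.

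A smaller group changed in the ZBTB18 line and lay near empty vector in the receptor line. By a rule that asked for a log2 change under 0.5 against empty vector and an opposite step of at least 2-fold from the ZBTB18 line, 15 genes higher and 24 genes lower in the ZBTB18 line met it. The rule goes by level, so a member can still pass the threshold against empty vector, as Ccdc92 did (log2 0.43, edgeR adjusted p = 0.0454, and 0.0941 to 0.183 without empty vector replicate 1 or 2 or receptor line replicate 2 or 3). Gsn, the actin-severing protein gelsolin, measured 505, 477 and 504 CPM with empty vector, 136, 160 and 175 CPM in the ZBTB18 line and 442, 614 and 582 CPM in the receptor line (log2 0.14, edgeR adjusted p = 0.401 against empty vector). Mfng, a modifier of Notch receptors, measured 11.6 to 14.6 CPM, 1.41 to 2.26 CPM and 13.1 to 18.7 CPM in the same order. Mfng was past the threshold against empty vector without receptor line replicate 1 (log2 0.49, edgeR adjusted p = 0.041) in the 6 libraries alone (0.36, edgeR adjusted p = 0.0453) and there with the replicate block (0.35, edgeR adjusted p = 0.0108). On the other side Sod3, an extracellular superoxide dismutase gene, measured 0.765 to 0.928 CPM with empty vector, 7.61 to 8.51 CPM in the ZBTB18 line and 0.578 to 1.36 CPM in the receptor line. Ngef, a guanine nucleotide exchange factor gene, and Galnt15, a glycosyltransferase gene, followed Sod3, with receptor minus ZBTB18 line differences of -2.81 and -2.97. A p that misses the threshold against empty vector does not show that the levels were equal.

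In a larger group the receptor line stood at least 2-fold from both other lines: 107 genes higher and 124 lower, with a log2 change under 0.5 in the ZBTB18 line. Of those named, Prrx1 (log2 0.44, edgeR adjusted p = 0.0101) and Sgcd (-0.5, edgeR adjusted p = 0.0123) also passed the threshold in the ZBTB18 line. On the lower side, besides Prrx1 and Lamb1, were the endocytic adaptor gene Sh3kbp1 (71.1, 54.9 and 72.7 CPM with empty vector, 68.7 to 75.6 CPM in the ZBTB18 line and 1.59, 1.06 and 1.31 CPM in the receptor line, log2 -5.62, SE 0.24). The sarcoglycan gene Sgcd fell by 5.67 and Rin2, a Rab5 regulator gene, by 4.25 on the log2 scale. On the higher side were Scarf1, Il23a, Lrrc32 and the sterol genes Mvd, Fdft1 and Lss, with the Ras exchange factor gene Rasgrp2 (log2 2.56) and Dnaaf3 (2.99). Parental Sh3kbp1 was 8.61 CPM and parental Rin2 6.36 CPM, between the extremes. Rasgrp2 was 26.5 CPM in the parental line, above the receptor line.

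Calls against empty vector leaned to one side on some chromosomes. On chromosome 10 there were 126 higher and 324 lower of 726 tested genes, on chromosome 13 67 and 264 of 609, and on chromosome 17 276 and 124 of 789. The ZBTB18 line leaned the same way on chromosome 10 (39 and 268) and chromosome 13 (19 and 243) against the same empty vector libraries. Between the receptor line and the ZBTB18 line the split was near even on both of these chromosomes, at 142 and 115 and at 115 and 112. That split leaned low on chromosome 19 (53 higher and 214 lower of 540) and chromosome 15 (96 and 210 of 614). There the ZBTB18 line leaned high against empty vector, at 222 higher and 26 lower and at 146 and 58. The receptor line split 156 and 123 on chromosome 19 and 150 and 164 on chromosome 15 against empty vector. No test was made of these counts, and neighbouring genes are not independent.

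**Figure D5:**
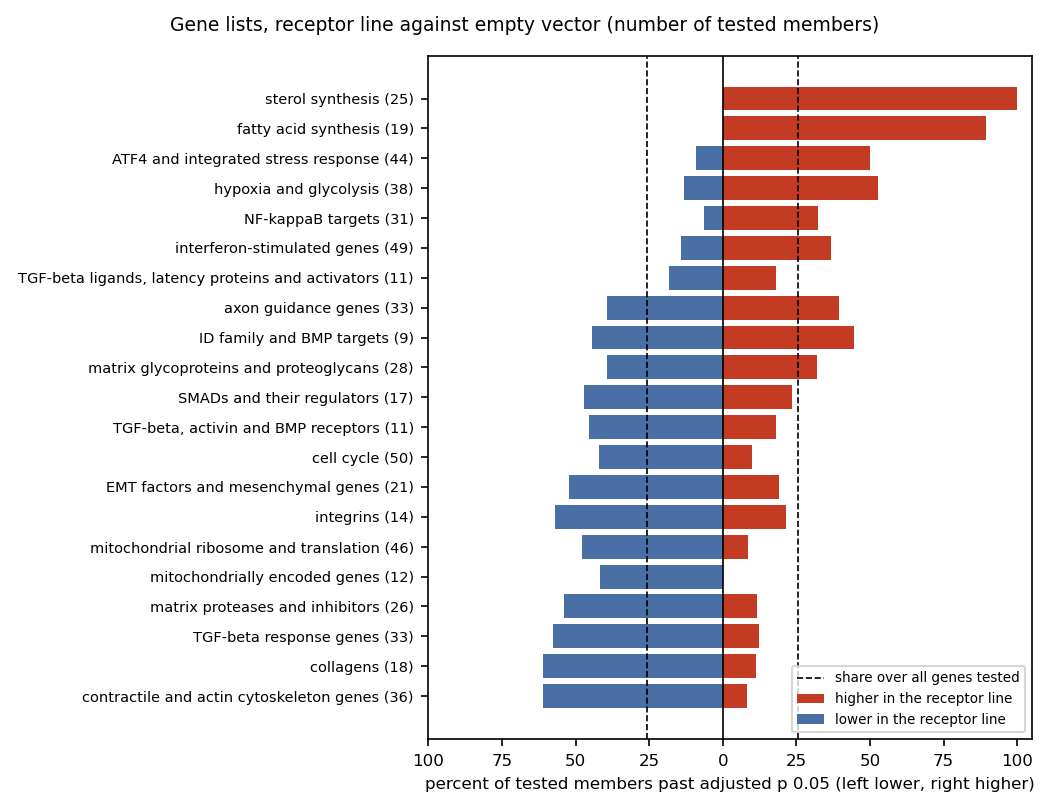
Percent of tested members of each gene list past an adjusted p of 0.05 in the receptor line against empty vector, lower to the left and higher to the right, with the number tested in brackets and dashed lines at the share over all genes, 25.9% lower and 25.6% higher. Sterol synthesis reaches 100% higher, and contractile genes and collagens have the largest share of lower members among the lists shown.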

How the data were processed

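PolyA RNA-seq covered 21 libraries, of which 3 receptor line libraries with vehicle and 3 empty vector libraries made the main comparison. The authors deposited RSEM expected counts per gene, without normalisation, and TPM, which allow for gene length and share 1 sum in every library. The submitters' processing notes list Trim Galore, RSEM, GATK 4.1.2.0, STAR 2.7.1a and build mm10. The order of steps and the annotation release are not given in the sources used here, and the deposited FPKM table was not used here. Of 55573 gene identifiers 99.1% were in GENCODE vM21, which gave positions. The 92 spike-in entries held 0 counts and were left out. Expected counts were rounded, since 1.28% of values were not whole.

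Tests were made with edgeR 4.0.16 under R 4.3.3 on all 21 libraries, with TMM library scaling and edgeR's group-wise filter on low counts, which kept 15432 genes. Each group had its own mean in the robust quasi-likelihood fit, leaving 14 residual degrees of freedom, and F-tests were two-sided. Groups with a wider spread than the lines compared also entered this fit. The log2 SD of a typical gene was 0.162 in the parental line, 0.155 in the M11 line and 0.157 in the M12 line of the series. It was 0.0906 with empty vector and 0.0925 in the receptor line. Benjamini-Hochberg adjustment ran over every tested gene and the threshold was 0.05. Levels are CPM after TMM, and SEs were derived from the F-tests. Libraries ranged from 24208569 to 90518872 counts, and counting intervals (95%) and bounds at 3 counts over a group cover counting error only, since no molecular identifiers were used to count molecules. The fit was tested on simulated data.

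Alternatives were DESeq2 1.42.0, DESeq2 size factors, 2 other filters on low counts, limma 3.58.1 on log2(TPM + 1) and log2(TPM + 0.1), the 6 libraries alone, the parental line as reference, each library left out, and the replicate number as a block, fitted on those 6 libraries. Same-numbered receptor and empty vector libraries deviated together across genes (r = 0.302, 0.198 and 0.177), so the numbers were taken to pair them. That pairing comes from the data, since the labels name no shared batch or day.

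The members and gene lists were chosen with earlier results of these data known. The genes named were Zbtb18, Tgfbr2, Tgfbr1 and members of the 4 TGF-β lists. Added to these were the 15 largest changes each way with at least 5 CPM, 2-fold and no overlap, and for each other list up to 6 members with the lowest p and up to 2 that did not pass. The rest were up to 8 genes each way that kept or lost the change of the ZBTB18 line or changed in the receptor line by level, and up to 6 with opposite changes. Some genes that met these rules are not reported here. Promoter sequences are from RefSeq (GRCm38.p6).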

Additional observations from a re-analysis of the deposited data

Results flagged for a closer look

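Against empty vector, 24 genes with an official symbol were higher in the receptor line and lower in the ZBTB18 line, and 37 were the reverse. Each change was at least 2-fold and past the threshold. An official symbol here means no Gm number, Rik or clone name, and without that limit the counts were 30 and 44. Those given here are from the 6 each way whose smaller change was the largest, and the difference between the lines was tested as the receptor line minus the ZBTB18 line, with every edgeR adjusted p past the threshold.

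Higher in the receptor line and lower in the ZBTB18 line were Tgfbr2 itself (log2 difference 8.4), the acetylcholine receptor subunit gene Chrng (6.03), the iron-binding lipocalin gene Lcn2 (5.45), Col9a1, a cartilage collagen (5.24), and Prdm1, a transcriptional repressor that drives plasma cell differentiation (5.23). Prdm1 measured 0.941, 1.09 and 1.35 CPM with empty vector, 7.46, 9.24 and 8.39 CPM in the receptor line and 0.128 to 0.367 CPM in the ZBTB18 line. Chrng had 1 count over the ZBTB18 line libraries, and empty vector held 15.1 times its level, with a counting interval of 2.32 to 634. Lcn2 rested on single libraries: it measured 9.51, 12.4 and 6.53 CPM with empty vector and 13.5, 35.3 and 114 CPM in the receptor line (log2 2.51, SE 0.91, edgeR adjusted p = 0.0316). That call was lost without receptor line replicate 3 (1.36, edgeR adjusted p = 0.224) and without empty vector replicate 1, 2 or 3 in turn (edgeR adjusted p = 0.0835, 0.0591 and 0.0993). Lcn2 did not pass in the 6 libraries alone either (2.51, edgeR adjusted p = 0.0799), nor there with the replicate number as a block (1.96, edgeR adjusted p = 0.245).

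Lower in the receptor line and higher in the ZBTB18 line were Pou2af1, a B-cell coactivator gene (log2 difference -9.39), the lectin receptor gene Cd302 (-9.33), Fgd4 (-7.16), the lymphoid factor gene Ikzf2 (-6.22), Tnfsf10, which encodes the death ligand TRAIL (-5.56), and the adhesion scaffold gene Nedd9 (-5.27). Pou2af1 measured 0.928, 0.629 and 1.03 CPM with empty vector, at most 0.0559 CPM in the receptor line and 33.2, 40.1 and 39.5 CPM in the ZBTB18 line. Ikzf2 lay at 0.765 to 1.06 CPM, 0.184 to 0.188 CPM and 13.8 to 14.4 CPM in that order. Cd302 had 0 counts in the receptor line, at least 103-fold lower than the ZBTB18 line and at least 4.05-fold lower than empty vector against a floor of 3 counts over the group, so its fitted difference is no bound. The Nedd9 fall against empty vector started from at most 0.213 CPM and was lost without empty vector replicate 1 (-1.75, edgeR adjusted p = 0.0979).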

How the results depend on the processing

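Sterol genes were 25 of 25 higher under each alternative run. Calls against empty vector numbered 6795 to 7237 with a library left out, 3367 to 3607 higher and 3402 to 3630 lower, 8945 in the 6 libraries alone, and 9307 in those 6 with the replicate number as a block. Of 158 named genes, the DESeq2 Wald test kept the direction and the call of 158. Genes near 0 counts are limited by depth, and TPM with a pseudocount shrinks their folds.

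With the parental line as reference, 2159 genes were at least 2-fold lower in the receptor line. Higher and lower were 5 and 4 ligand and latency genes, 9 and 4 SMAD genes, 5 and 5 collagens, 10 and 9 proteases, 16 and 3 contractile genes, and 19 and 1 NF-κB targets. It gave 7 response genes, 9 mesenchymal genes and 22 cell cycle genes higher, and 3 receptors, 2 hypoxia genes, 7 ATF4 genes, 38 interferon genes and 11 mitochondrially encoded genes lower, while interferon genes higher came to 0. The log2 values that changed sign there were Acaca 0.75, Acta2 0.49, Acvr1b 0.17, Acvr2a 0.0, Col18a1 2.09, Galnt15 -1.7, Itga6 1.12, Mmp14 0.23, Rasgrp2 -0.78, Samd9l -0.61, Smad5 0.17, Stat2 -0.8, Tgfbi 0.01 and Tgfbr1 0.14.

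With limma on log2(TPM + 1), 510 genes were at least 2-fold higher and 521 lower against empty vector, 142 and 264 in the ZBTB18 line, and 342 and 310 between the receptor and ZBTB18 lines. The ZBTB18 line then had 1431 lower genes, and 1485 with log2(TPM + 0.1). Both TPM scales gave 1 lower ligand gene, 3 lower hypoxia genes and 5 lower NF-κB targets. Log2(TPM + 1) gave 1 higher collagen, and log2(TPM + 0.1) gave 3 higher cell cycle genes and 8 lower mitochondrially encoded genes.

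The replicate block was fitted on the 6 libraries of the comparison, so it is read against those 6 alone. With the block, 5 proteases, 5 contractile genes, 8 cell cycle genes, 2 mitochondrially encoded genes and 8 mitochondrial ribosome genes were higher, and 4 NF-κB targets and 8 mitochondrially encoded genes lower. Against the ZBTB18 line, 3 hypoxia genes were lower with the block. That fit used the 6 receptor and ZBTB18 line libraries, where same-numbered libraries gave r = 0.258, -0.0613 and 0.415. Replicate 2 thus did not deviate together in those lines, so the pairing is weaker there. The block fit moved no other count of these lists by over 1.5 times from the fit on all libraries. The 6 libraries alone already gave 5 higher proteases, 8 higher cell cycle genes and 8 lower mitochondrially encoded genes, and 3 lower hypoxia genes against the ZBTB18 line, besides 4 higher contractile genes, 5 higher mitochondrial ribosome genes and 3 lower NF-κB targets. Among named genes, Lcn2 lost its call and Ldha, Mfng and Vim gained one in the 6 libraries alone and with the block, while Saa3 lost and Itga6 gained one with the block but not in the 6 alone. With no filter on low counts, 29 interferon genes were higher, NF-κB targets split 19 higher and 6 lower, and mitochondrially encoded genes 1 and 10. A filter of 1 CPM gave 648 genes at least 2-fold higher than in the ZBTB18 line.

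Leaving out a library gave 1 to 2 lower ligand genes, 1 to 2 higher collagens, 1 to 4 higher proteases, 2 to 5 lower hypoxia genes, 2 to 5 higher cell cycle genes, 9 to 16 higher and 4 to 5 lower interferon genes, 5 to 13 higher and 2 to 5 lower NF-κB targets, 3 to 6 lower mitochondrially encoded genes and 2 to 3 higher mitochondrial ribosome genes. Against the ZBTB18 line, 13 to 25 NF-κB targets were higher. The cause of these differences was not tested.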

Other observations

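Axon guidance genes, which steer migrating cells as well as growing axons, changed in both directions in the receptor line. Of 33 tested, 13 rose and 13 fell against empty vector, where 25.6% of all genes rose and 25.9% fell. Of these, 4 of the rises and 10 of the falls were at least 2-fold. Sema6d, a transmembrane semaphorin gene, measured 16.8, 15.7 and 13.8 CPM with empty vector, 35.7, 35.7 and 35.5 CPM in the ZBTB18 line and 0.155, 0.168 and 0.0922 CPM in the receptor line (log2 -6.73, SE 0.28, edgeR adjusted p = 3.84e-14). The ephrin receptor gene Ephb4 fell from 47.7, 51.4 and 48.2 CPM to 6.57, 6.34 and 8.35 CPM (log2 -2.8, SE 0.12), and the netrin gene Ntn1 fell by 2.34 on the log2 scale. The netrin gene Ntn4 fell from 1.83 to 2.25 CPM to at most 0.0231 CPM (log2 -7.22). Sema4c, also a semaphorin gene, rose from 36.4, 30.9 and 33.9 CPM to 81.1, 88.6 and 74.8 CPM (log2 1.27, SE 0.1). The parental line held 1.65 CPM of Sema6d, between the receptor line and the others.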
